A study of Mus musculus with 2 samples.

Results

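The mouse mitochondrial chromosome encodes 37 genes, and the members described here were every gene whose symbol starts with mt- and which lies on that chromosome, found by gene identifier in the gene tables of both libraries. They made up 37 of the 43346 gene rows and fell into 13 messenger RNA genes, 2 ribosomal RNA genes and 22 transfer RNA genes, which were kept apart throughout. The RNA came from the cortex (labelled cortical plate) of adult C57BL/6J mice aged 8 weeks, with male and female littermates pooled. The series held 1 group of 2 libraries, labelled biological replicates 1 and 2, and no second genotype, treatment or age. Each library was a strand-specific paired-end library (PE101 reads) from poly-A+ RNA longer than 200 nt, depleted of ribosomal RNA, with spike-in RNAs added. No agent or allele was named in the labels. The values describe bulk tissue, in which fewer cells of a type and less RNA per cell cannot be told apart. How many animals went into each pool was not given, and both libraries carry the same donor label, so the spread between them may be partly technical.

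Mitochondrial DNA is a small circle carried in many copies per cell, and it is transcribed from both strands as long precursors. Transfer RNAs punctuate these precursors, and cutting them out releases the messenger and ribosomal RNAs, most of which then gain a poly(A) tail. The messenger RNAs encode core subunits of the respiratory chain and ATP synthase, the machinery on which cortical neurons depend for most of their ATP, and the other subunits are made from nuclear genes.

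The tissue label was checked against marker genes of cortical cell classes, and those named here were all detected. The neuronal genes Snap25 and Syp had a mean TPM (abundance per length, scaled to 1000000 over each library) of 1530 and 585, and the oligodendrocyte gene Mbp had 2017. Excitatory neuron genes ranged from 18.4 TPM for Fezf2 to 525 for Slc17a7 and 884 for Camk2a, and the inhibitory neuron gene Gad1 stood at 171. The astrocyte genes Gfap and Aqp4 (95.03 and 24.5 TPM), the microglial gene Cx3cr1 (20.6 TPM) and the endothelial gene Cldn5 (46.1 TPM) were also detected. The gene rows summed to 88327121 expected counts in replicate 1 and 88643335 in replicate 2.

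Several mitochondrial genes overlap their neighbours or end without a complete stop codon, and a block of the chromosome has a nearly identical copy in the nuclear genome, so the sequences that bear on the measurements are given first. They come from GENCODE release 21 mouse transcripts on GRCm38 (mm10) and are written 5′ to 3′ on the strand of the gene. The shortest messenger RNA gene, mt-Atp8 (chrM:7766-7969, plus strand), is printed whole, with the 43 nt that it shares with mt-Atp6 in capitals. The last 30 bases of mt-Nd4l (chrM:10144-10173, plus strand) follow, with the 7 nt shared with mt-Nd4 in capitals. In both, the capitals open with the start codon of the downstream gene and close with the stop codon of the upstream gene.
mt-Atp8: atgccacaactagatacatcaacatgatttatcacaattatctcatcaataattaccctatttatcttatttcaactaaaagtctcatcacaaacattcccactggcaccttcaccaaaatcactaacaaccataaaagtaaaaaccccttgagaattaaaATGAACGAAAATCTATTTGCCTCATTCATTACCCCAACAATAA
mt-Nd4l end: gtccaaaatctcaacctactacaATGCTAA

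The last 30 bases of 4 messenger RNA genes show the incomplete and complete stop codons, with what stands in the last codon in capitals. The first 3 of them, mt-Co3 (chrM:9361-9390), mt-Nd4 (chrM:11515-11544) and mt-Cytb (chrM:15259-15288), end in a lone T, and mt-Co1 (chrM:6843-6872) ends in a complete TAA. In mammalian mitochondria a terminal T becomes a stop codon only when the poly(A) tail is added. Of the 13 messenger RNA genes, 10 carried a complete stop codon, 8 of them TAA and 2 (mt-Nd1 and mt-Nd2) TAG, and 3 did not. GC content ran from 31.9% in mt-Atp8 to 41.1% in mt-Nd4l, and 9 of the 13 genes started with ATG.
mt-Co3 end: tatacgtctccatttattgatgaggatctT
mt-Nd4 end: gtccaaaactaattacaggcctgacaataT
mt-Cytb end: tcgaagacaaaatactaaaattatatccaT
mt-Co1 end: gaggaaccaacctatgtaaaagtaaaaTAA

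The nuclear copies were found by matching windows of the read length between annotated transcripts. They comprised 7 unprocessed pseudogenes that lie together on the minus strand of chromosome 1, at chr1:24611535-24616197, in the same order as the mitochondrial genes they match. Over their annotated lengths Gm28661 (matching mt-Co2), Gm10925 (mt-Atp6), Gm28437 (mt-Co3), Gm10222 (mt-Nd4l) and Gm28439 (the start of mt-Nd4) had no difference from the mitochondrial gene. Gm28438 differed from mt-Nd3 by T3C, and Gm29216 differed from mt-Co1 by T1056A, C1057T, A1059G, A1060G, C1062A and A1066T, with the mitochondrial base first and positions counted from 1 at the 5′ end of the mitochondrial gene. The stretches that hold these differences are shown with the differing bases in capitals: mt-Nd3 at chrM:9459-9518, Gm28438 at chr1:24613060-24613119, mt-Co1 at chrM:6381-6440 and Gm29216 at chr1:24616138-24616197.
mt-Nd3 stretch: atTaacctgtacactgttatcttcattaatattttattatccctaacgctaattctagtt
Gm28438 stretch: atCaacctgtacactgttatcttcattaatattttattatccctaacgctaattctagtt
mt-Co1 stretch: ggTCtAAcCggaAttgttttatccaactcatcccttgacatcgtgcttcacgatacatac
Gm29216 stretch: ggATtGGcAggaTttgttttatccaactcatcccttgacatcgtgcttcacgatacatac

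The transfer RNA genes are shown by the shortest, mt-Ts2 for serine (chrM:11613-11671, 59 nt), and the longest, mt-Tl1 for leucine (chrM:2676-2750, 75 nt), both on the plus strand. Neither reaches the 200 nt size limit of the RNA that was sequenced.
mt-Ts2: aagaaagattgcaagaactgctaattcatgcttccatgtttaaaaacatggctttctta
mt-Tl1: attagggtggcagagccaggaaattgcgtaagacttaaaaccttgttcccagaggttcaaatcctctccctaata

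Mitochondrially encoded genes held 9.03% of the gene counts in replicate 1 and 9.30% in replicate 2, a mean of 9.16% ± 0.187 (SD, n = 2). The messenger RNA genes took 8.13% and 8.03%, a mean of 8.08% ± 0.07. The ribosomal RNA genes took 0.905% and 1.27%, a mean of 1.09% ± 0.257, in RNA that had been depleted of ribosomal RNA and selected for poly(A). The messenger share therefore differed little between the libraries, and the wider spread lay in the ribosomal share. Among the counts on mitochondrial genes alone, the ribosomal part was 10.03% in replicate 1 and 13.65% in replicate 2.

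All 22 transfer RNA genes (mt-Ta, mt-Tc, mt-Td, mt-Te, mt-Tf, mt-Tg, mt-Th, mt-Ti, mt-Tk, mt-Tl1, mt-Tl2, mt-Tm, mt-Tn, mt-Tp, mt-Tq, mt-Tr, mt-Ts1, mt-Ts2, mt-Tt, mt-Tv, mt-Tw and mt-Ty) were listed at 0 counts in both libraries. Their deposited effective length, the number of positions at which a fragment could start, was also 0. These zeros are therefore not a measurement of transfer RNA, and 15 of the 37 members had values to describe.

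The share rested strongly on the unit. Members held 34.3% of the TPM on gene rows in replicate 1 and 36.7% in replicate 2, and mt-Atp8 alone held 19.96% and 23.06%. With mt-Atp8 left out of both the members and the total, the share of TPM was 17.9% and 17.7%. mt-Atp8 is 204 nt long, but its effective length was 12.6 nt in replicate 1 and 10.4 nt in replicate 2, and TPM divides by the effective length.

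**Figure D1:**
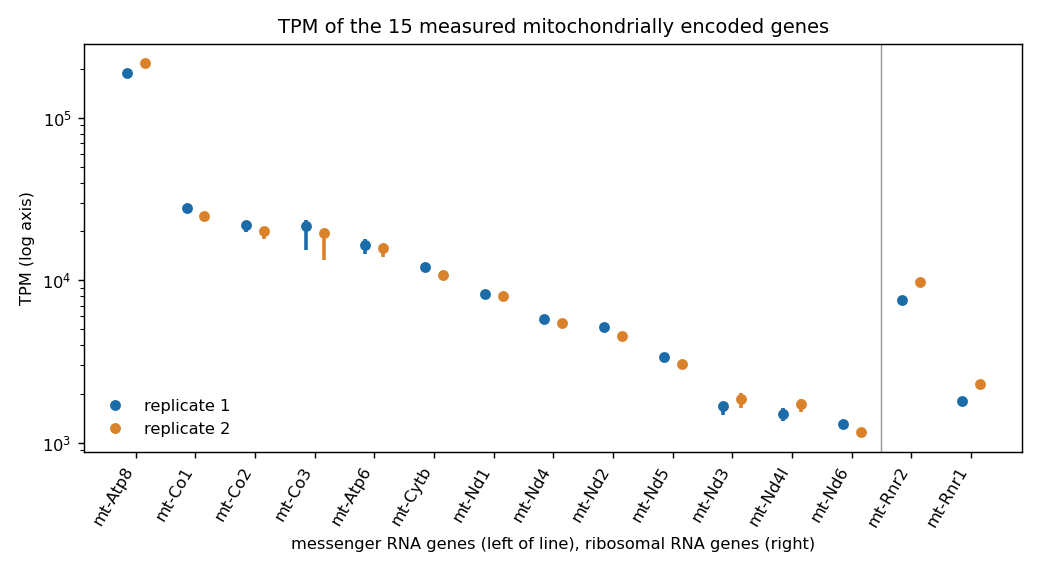
TPM (log axis) of the 13 messenger RNA genes, ordered by mean TPM, and of the 2 ribosomal RNA genes. Points are the libraries and vertical lines the authors' credible bounds of TPM, which were widest for mt-Co3. The bounds surround the posterior mean TPM, not the point. In several genes the point lies above its upper bound, as for mt-Co1 in replicate 1 (27765 against 27576). mt-Atp8 stood highest at 189727 and 218879 TPM and mt-Nd6 lowest of the messenger RNA genes at 1304 and 1176.

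Complex IV, cytochrome c oxidase, hands electrons to oxygen, and its 3 encoded subunits were among the 4 messenger RNA genes with the highest TPM. mt-Co1 (chrM:5328-6872), the catalytic subunit, had 27765 TPM in replicate 1 and 24884 in replicate 2. It took more counts than any other member, 2525834 and 2470252, which was 31.66% and 29.98% of the counts on mitochondrial genes. mt-Co2 (chrM:7013-7696), which receives electrons from cytochrome c, had 22021 and 20103 TPM. mt-Co3 (chrM:8607-9390), the remaining core subunit, had 21684 and 19439 TPM. The libraries of mt-Co2 and mt-Co3 overlapped in TPM, whereas mt-Co1 lay above both in each library. Within each library mt-Co2 was higher than mt-Co3, but their credible bounds overlapped. With the counts placed on nuclear copies added, mt-Co3 (28675 and 26361 TPM) lay above mt-Co2 (26305 and 25324 TPM) without overlap.

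ATP synthase has 2 encoded subunits, mt-Atp6 and mt-Atp8, which belong to its membrane part. mt-Atp6 (chrM:7927-8607) had 16425 and 15745 TPM, and the overlapping mt-Atp8 had 189727 and 218879. The TPM of mt-Atp8 was 11.6 times that of mt-Atp6 in replicate 1 and 13.9 times in replicate 2. On counts per kb of annotated length per 1000000 gene counts the pair stood at 9011 and 8872 in replicate 1 and at 9374 and 9151 in replicate 2, a ratio of 1.02 in each library. The distance between these overlapping genes was thus present with effective lengths and nearly absent with annotated lengths. On the annotated-length scale mt-Co1 was highest, at 18509 and 18037, and mt-Atp8 was the fourth.

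mt-Cytb (chrM:14145-15288), the cytochrome b of complex III and its sole encoded subunit, had 12170 and 10809 TPM. It lay below mt-Atp6 and above all 7 subunits of complex I in both libraries.

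Complex I, the NADH dehydrogenase through which most electrons enter the chain, has 7 encoded subunits, all in its membrane arm, and they spanned the lower part of the order. mt-Nd1 (chrM:2751-3707) led them at 8209 and 8072 TPM. mt-Nd4 (chrM:10167-11544) had 5789 and 5494 TPM. mt-Nd2 (chrM:3914-4951) had 5196 and 4570 TPM. These genes did not overlap in level between the libraries. mt-Nd5 (chrM:11742-13565), the longest, followed at 3392 and 3050 TPM. mt-Nd3 (chrM:9459-9806) had 1691 and 1867 TPM, and mt-Nd4l (chrM:9877-10173) had 1514 and 1736. The last 2 overlapped across the libraries. Within each library mt-Nd3 was higher than mt-Nd4l, but their credible bounds overlapped. Of the 12 steps from one messenger RNA gene to the next in the TPM order, 10 separated libraries that did not overlap. The order of the genes was the same in both libraries.

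mt-Nd4l and mt-Nd4, whose reading frames share 7 nt, also differed by unit: mt-Nd4 was 3.82 and 3.16 times mt-Nd4l in TPM, and 10.02 and 8.91 times on annotated length. mt-Nd4l had an effective length of 96.8 and 89.5 nt.

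mt-Nd6 (chrM:13552-14070) is the only messenger RNA gene on the minus strand and encodes another membrane subunit of complex I. Its level was the lowest in TPM, at 1304 and 1176, with 28077 and 27101 counts. On the log2 scale its difference from the median TPM of the 12 plus-strand genes was -2.97 in replicate 1 and -3.01 in replicate 2, a mean of -2.99 ± 0.028 (SD, n = 2). On annotated length the difference was -3.40, and there mt-Nd6 was above mt-Nd4l in both libraries (612 against 378 and 589 against 438). It was above mt-Nd3 in replicate 1 (549) and below it in replicate 2 (629). These values leave out the counts placed on nuclear copies. With the copies added, mt-Nd4l had 45177 and 44004 counts over 297 nt, and mt-Nd3 had 48763 and 57859 over 348 nt. Both then lay above mt-Nd6 (519 nt) on annotated length in both libraries. Whether the counting used strand was not given in the sources used here, so reads of mt-Nd6 and of RNA from the opposite strand cannot be told apart. In the mm9 table of contigs (stretches of continuous read coverage) no minus-strand contig overlapped mt-Nd6, and a plus-strand contig did. The mm9 junctions (alignments that skip a stretch of sequence) included 57 inside mt-Nd6 on its own minus strand, with 99 reads.

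The ribosomal RNAs form the small subunit (mt-Rnr1, chrM:70-1024) and the large subunit (mt-Rnr2, chrM:1094-2675) of the mitochondrial ribosome. mt-Rnr2 had 7562 TPM in replicate 1 and 9774 in replicate 2, and mt-Rnr1 had 1820 and 2298. Although one of each RNA is present in a ribosome, the TPM of mt-Rnr2 was 4.16 and 4.25 times that of mt-Rnr1 in these poly(A)-selected libraries. Both ribosomal genes were lower in replicate 1 than in replicate 2.

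The nuclear copies took 991431 counts in replicate 1 and 991739 in replicate 2, 1.12% of gene counts in each. For mt-Nd4l more counts stood on the copy than on the mitochondrial gene, with 35257 and 32462 on Gm10222 against 9920 and 11542 on mt-Nd4l. For mt-Nd3 this was also so, with 31896 and 38465 on Gm28438 against 16867 and 19394. The copy thus held 78.0% and 73.8% of the summed counts for mt-Nd4l and 65.4% and 66.5% for mt-Nd3. The pairs of the longer genes leaned the other way. The copy held 24.4% and 26.2% for mt-Co3, 23.7% and 18.7% for mt-Atp6, 16.2% and 20.5% for mt-Co2, and 11.97% and 11.30% for mt-Co1, which Gm29216 covers only from base 1054 to base 1545. Gm28439, which matches the first 876 of the 1378 nt of mt-Nd4 exactly, held 0.060% and 0.065%. Exact copies thus received shares from 0.060% to 78.0% in the same libraries, and for reads inside an identical stretch the mitochondrial and nuclear origin cannot be told apart.

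**Figure D2:**
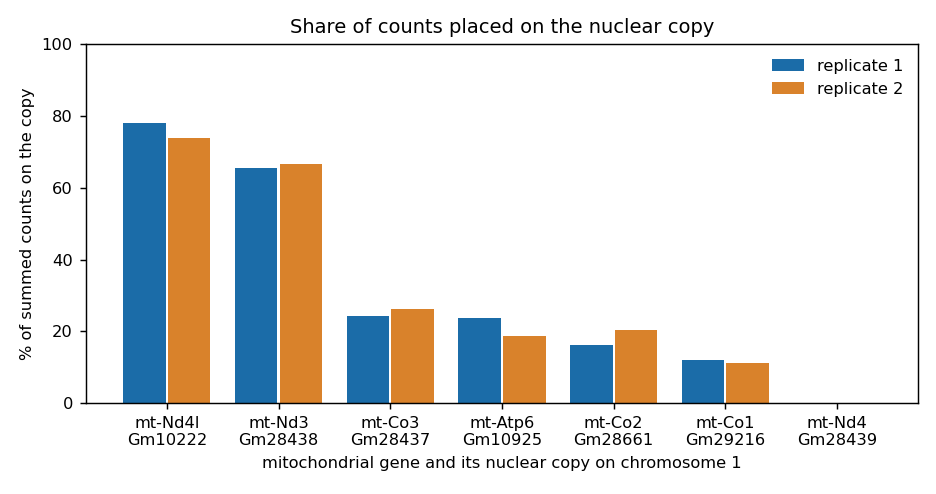
Share (%) of the summed expected counts of each mitochondrial gene and its copy on chromosome 1 that was placed on the copy, with 1 bar per library. The share was 65.4% or more for mt-Nd4l and mt-Nd3, between 11.3% and 26.2% for mt-Co3, mt-Atp6, mt-Co2 and mt-Co1, and 0.060% and 0.065% for mt-Nd4.

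The TPM of the short complex I genes moved with this placement. The gene and copy together summed to 7066 TPM in replicate 1 and 6787 in replicate 2 for mt-Nd4l, above the 5795 and 5500 of mt-Nd4 with its copy. For mt-Nd3 the sum was 4955 and 5651 TPM. With the copies added, mt-Nd4l lay above mt-Nd4, mt-Nd2 and mt-Nd5 in TPM in both libraries. In TPM mt-Nd3 lay above mt-Nd5 in both. In replicate 1 it stayed below mt-Nd2 (5196) and mt-Nd4, and in replicate 2 it lay above both (4570 and 5500). TPM divides by effective length, which was 96.8 and 89.5 nt for mt-Nd4l. Its summed counts were 45177 and 44004 over 297 nt, against 461444 and 477525 over the 1378 nt of mt-Nd4. The sum for mt-Nd3 was 48763 and 57859 counts over 348 nt. On annotated length, both short genes thus stayed below mt-Nd4, mt-Nd2 and mt-Nd5 with the copies added.

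The authors' credible bounds of TPM were widest for genes with copies. The interval spanned 43.1% and 43.6% of the posterior mean TPM for mt-Co3, and its TPM of 21684 in replicate 1 came with bounds of 15341 and 23454. It spanned 21.2% and 18.3% for mt-Atp6, 19.0% and 20.4% for mt-Nd3, 18.4% and 18.8% for mt-Nd4l, and 13.3% and 15.6% for mt-Co2. In these 5 genes at least 97.6% of the read-length windows also occurred in annotated nuclear transcripts. The other 10 measured members had intervals of 2.40% or less. They included mt-Nd4 with 60.7% of windows shared and mt-Co1 with 30.7%. The widest of the 10 was mt-Nd6 (2.35% and 2.40%), with no shared window. Windows were compared with annotated transcripts only, so copies elsewhere in the genome were not counted.

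**Figure D3:**
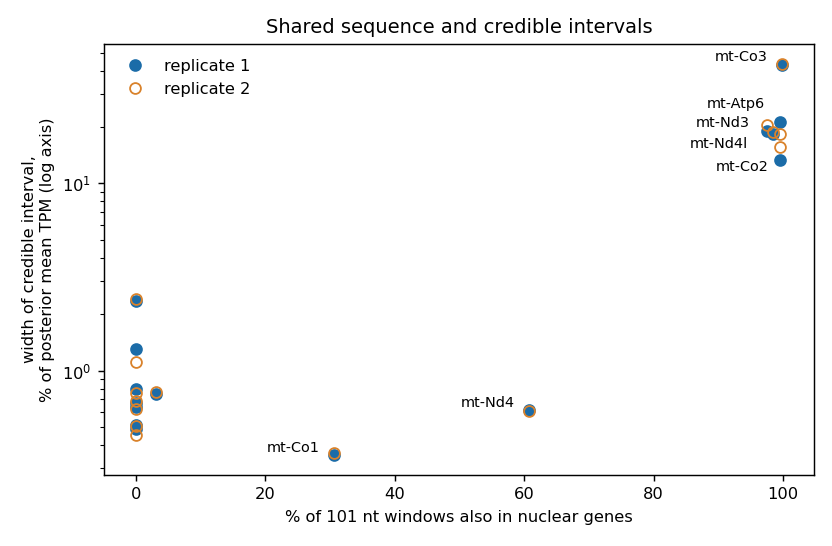
Width of the authors' credible interval of TPM, as % of the posterior mean TPM (log axis), against the % of read-length windows that also occur in annotated nuclear transcripts, for the 15 measured members in both libraries. The 5 genes at 97.6% or above have intervals of 13.3% to 43.6%, and the other 10 lie at 2.40% or below.

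With 1 group, the libraries could be compared only with each other. An exact binomial test, two-sided, with TMM scaling (trimmed mean of M values) and Benjamini-Hochberg adjustment over 19829 genes, covers counting error and compares these 2 libraries, not conditions. Of the 15 members tested, 13 passed the threshold of 0.05, 9 of them higher and 4 lower in replicate 2. Across all genes tested, 28.7% passed, 14.8% higher and 14.0% lower. The split depended on the scaling. Plain totals gave 8 members higher and 7 lower, beside 2052 and 4125 of all genes, and spike-in totals gave 4 and 11, beside 876 and 9675. Depth bears on such counts. Among the 1654 other genes with at least as many counts as the least covered member (21463 over both libraries), 66.3% passed. When the noise was widened to the biological coefficient of variation estimated between the libraries (0.0905), edgeR's exact test called 0 members and 260 genes in all, or 1.31%. At an unadjusted p below 0.05 that test called 1252 of the 19829 genes, 2 of them members (mt-Rnr1 and mt-Rnr2). Its noise was estimated from the same 2 libraries that it compared and so includes their differences. Few calls therefore do not show that the libraries were alike.

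The ribosomal RNA genes differed most between the libraries. mt-Rnr1 took 92886 and 127404 counts in replicates 1 and 2, and its scaled ratio was 1.399 (95% Clopper-Pearson interval 1.387 to 1.411). mt-Rnr2 had 706873 and 997142 counts, and its ratio was 1.439 (1.434 to 1.443). Of the 1654 other genes with at least 21463 counts, 17 (1.03%) had a log2 ratio at least as far from 0 as mt-Rnr1 (0.48). That floor is the depth of the least covered member and lies below both ribosomal genes, so the set was not matched to their depth. With noise estimated from these same 2 libraries the adjusted p of edgeR's exact test was 0.305 for mt-Rnr1 and 0.199 for mt-Rnr2.

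Other rows moved the same way between the libraries. Gm42418, a nuclear locus known to take up reads of cytoplasmic ribosomal RNA, rose from 892438 counts to 1975384 in replicate 2, by 2.26-fold. Lars2, the mitochondrial leucyl-tRNA synthetase, had 241631 and 610102 counts, a ratio of 2.58. Both were singled out after their values were seen. The oligodendrocyte marker Mbp was 1.34-fold higher in replicate 2, and the neuronal markers Snap25 and Syp stood at 1.02 and 0.978. The excitatory neuron markers Fezf2, Slc17a7 and Camk2a stood at 0.863, 0.935 and 0.948, and the inhibitory neuron marker Gad1 stood at 1.05. The part of these rows and markers in the ribosomal difference was not tested.

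The messenger RNA genes together took 7177485 and 7115392 counts, and their scaled ratio was 1.01, against 1.43 for the ribosomal genes. Their median log2 ratio was 0.0080 beside 0.0028 over all genes tested, with 7 genes higher and 4 lower. Of all genes 28.7% were called, and of the 1654 others with at least 21463 counts over both libraries 66.3% were called. Their median distance from 0 was 0.036 on the log2 scale, against 0.055 for those 1654 genes. That set starts at the depth of the least covered member and most messenger RNA genes are far deeper. It was thus not matched in depth, and the 2 medians do not show how stable these genes are for their depth.

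Within the messenger RNAs the larger ratios belonged to short complex I genes. mt-Nd4l (9920 and 11542 counts) stood at a ratio of 1.19 (1.16 to 1.22), but with Gm10222 added it reversed to 0.993 (0.980 to 1.01), adjusted p = 0.518 by the exact binomial test. mt-Nd3 (16867 and 19394 counts) stood at 1.17 (1.15 to 1.20) and at 1.21 (1.20 to 1.22) with Gm28438 added. The difference in mt-Nd3 was thus as large with the copy as without it, and that in mt-Nd4l was not. The intervals of the genes alone leave out how reads were split over gene and copy. mt-Nd1, which has no copy among annotated transcripts, had 420061 and 448706 counts and a ratio of 1.09 (1.08 to 1.09). mt-Atp8, also without a copy among annotated transcripts, had 162368 and 169515 counts and a ratio of 1.06 (1.06 to 1.07). Scaled to spike-in totals, which moved the median of all genes to -0.15 on the log2 scale, mt-Nd1 turned to -0.030 and mt-Atp8 to -0.063, both still above that median. mt-Atp6, mt-Nd4 and mt-Co2, described next, also turned negative under that scaling, to -0.075, -0.075 and -0.15, as did mt-Nd5 to -0.15.

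Expected counts of copies and genes also moved apart. The exact binomial test and its intervals take these counts as observed and leave out how reads were split over gene and copy. Credible intervals of TPM spanned 13.3% and 15.6% of the posterior mean for mt-Co2, and 43.1% and 43.6% for mt-Co3. mt-Atp6 (533676 and 552437 counts) had a ratio of 1.06, whereas Gm10925 had 165954 and 127387 counts and a ratio of 0.783 (0.777 to 0.789), and their sum stood at 0.991. mt-Co2 (719973 and 709828 counts) had a ratio of 1.01, adjusted p = 0.0052 by the exact binomial test, and with DESeq2 size factors it did not pass (adjusted p = 0.82). Gm28661 had 139204 and 183213 counts and a ratio of 1.34 (1.33 to 1.35), and the sum of mt-Co2 and its copy stood at 1.06. mt-Co3 (855712 and 830804 counts) was 1.01-fold lower in replicate 2, while Gm28437 (275437 and 295311) stood at 1.09 and the sum at 1.02. For mt-Atp6 and mt-Co3, then, the sign of the library difference turned when the copy was added.

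Of the remaining members, mt-Nd4 differed about as much as mt-Atp6, and the others lay within a few percent of equality. mt-Nd4 (461168 and 477216 counts) had a ratio of 1.06 with or without its copy. mt-Nd2 was 1.03-fold lower in replicate 2 (294364 and 281542 counts), and mt-Cytb was 1.01-fold lower (776805 and 751048 counts). mt-Co1 had a ratio of 0.997 (adjusted p = 0.019 by the exact binomial test) and stood at 0.990 with Gm29216, itself at 0.934 (343407 and 314593 counts). The test made no call for mt-Nd5 (372659 and 366006 counts, ratio 1.00, 0.997 to 1.01, exact binomial adjusted p = 0.65) or for mt-Nd6 (ratio 0.984, 0.968 to 1.00, adjusted p = 0.17). Both intervals covered equality.

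**Figure D4:**
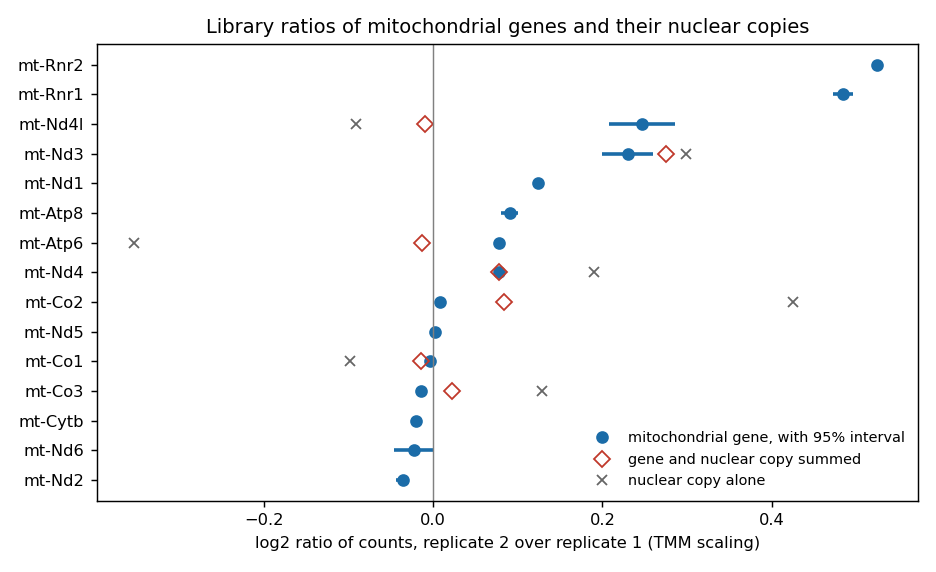
Log2 ratio of counts, replicate 2 over replicate 1 after TMM scaling, for the 15 measured members (filled points, with 95% Clopper-Pearson intervals), for each copy alone (crosses) and for gene and copy summed (open diamonds). mt-Rnr1 and mt-Rnr2 lie at 0.48 and 0.52, and the sums for mt-Atp6, mt-Co3 and mt-Nd4l lie on the other side of 0 from the gene alone.

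Encoded and nuclear subunits sit in the same complexes, so their levels were set side by side. The 74 nuclear subunit genes found in the tables had a median of 205 TPM in replicate 1 and 198 in replicate 2, and the highest was Cox6a1, a complex IV subunit, at a mean of 1430. Of the 13 encoded messenger RNA genes, 12 exceeded all 74 in mean TPM, and mt-Nd6, at 1240, did not. The lowest of the 12, mt-Nd4l, had a mean of 1625 TPM, with effective lengths of 96.8 and 89.5 nt. Its lower credible bound in replicate 1 was 1368, below Cox6a1. The comparison was made in TPM without the copies, and not on annotated length. Within each complex, 0 nuclear genes exceeded the lowest encoded one. The ratio of the encoded to the nuclear median was 26.8 and 26.2 in complex I, 53.8 and 52.8 in complex III, 34.3 and 35.6 in complex IV, and 363 and 434 in ATP synthase, where mt-Atp8 with its short effective length is 1 of the 2 encoded genes. The highest nuclear genes of the other complexes were Ndufb9 in complex I (391 TPM), Uqcr11 in complex III (793 TPM) and Atp5b, the catalytic beta subunit, in ATP synthase (759 TPM).

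**Figure D5:**
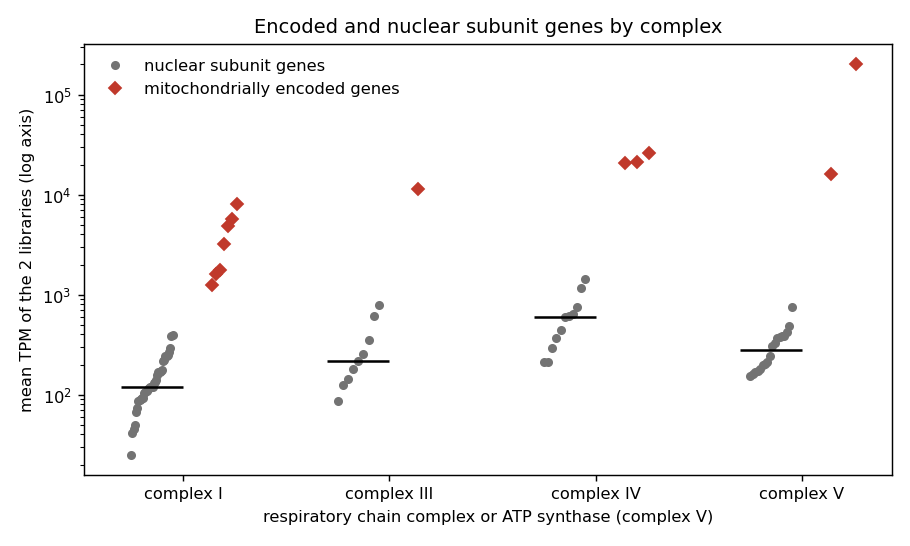
Mean TPM of the 2 libraries (log axis) of nuclear subunit genes (grey circles, black line at their median) and mitochondrially encoded genes (red diamonds) of each complex. In every complex the encoded genes lie above the nuclear ones, whose highest values were 391, 793, 1430 and 759 TPM.

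Between the libraries, 24 of the 74 nuclear subunit genes were higher in replicate 2 and 11 lower, with a median log2 ratio of 0.018. Over all genes tested 14.8% were higher and 14.0% lower, and 66.3% of the 1654 deep genes described above were called in either direction. Many of the nuclear subunit genes do not reach the 21463 counts of that deep set (Ndufa1 had 3821 and 4297), so it was not matched to them. In complex I, 9 of 36 were higher and 4 lower, Ndufb4 the farthest up at 1.15 and Ndufs5 the farthest down at 1.10-fold lower, and the least abundant was Ndufa11 (24.8 TPM). In complex III, 1 of 9 was higher (Uqcr11, 1.07) and 1 lower (Uqcr10, 1.10-fold), and the iron-sulfur subunit gene Uqcrfs1 was least abundant (85.6 TPM). In complex IV, 6 of 11 were higher and 5 lower, with Cox7b at 1.12 and Cox4i1 1.06-fold lower. Cox7b was also its least abundant gene (212 TPM). In ATP synthase, 8 of 18 were higher and 1 lower, with the gamma subunit gene Atp5c1 at 1.11 and Atp5k 1.17-fold lower, and Atp5mpl was least abundant (153 TPM). The largest called ratio in each of these complexes was under those of the ribosomal RNA genes.

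The nuclear genes that transcribe, process and translate mitochondrial RNA had lower levels than the genes they serve. The transcription list had a median of 8.79 TPM in replicate 1 and 8.45 in replicate 2, led by Polrmt, the mitochondrial RNA polymerase (27.8 TPM), with Mterf1b least abundant (2.04). Of its 10 genes, Mterf2 was higher in replicate 2 (1.19) and none was lower. Processing and turnover genes had medians of 16.4 and 14.4 TPM, led by Fastk (128 TPM). Of these 22 genes 4 were higher and 2 lower. Fastkd5, which takes part in processing junctions without a transfer RNA and was least abundant at 2.20 TPM, rose to 1.29, and Lrpprc, which stabilises mitochondrial messenger RNAs, was 1.05-fold lower. Modification genes, which act on transfer and ribosomal RNA, had medians of 9.16 and 7.40 TPM, with Trmu highest (28.8 TPM) and Nsun3 lowest (4.02 TPM). Of 14 tested, 0 were higher and 3 lower, Trit1 by 1.16-fold.

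Translation factors had medians of 13.4 and 10.8 TPM. The elongation factor gene Tufm was highest at 45.5 TPM and higher in replicate 2 (1.09). Mss51 was lowest at 0.200 TPM, and the initiation factor gene Mtif2 was 1.13-fold lower. In all, 1 of these 12 genes was higher and 2 lower. Genes of mitochondrial DNA replication and maintenance had medians of 9.68 and 7.75 TPM. The polymerase gene Polg was highest at 41.6 TPM, and Primpol, a primase-polymerase, was lowest at 0.965. Of 15, Rrm2b, a ribonucleotide reductase subunit, was higher (1.12) and 2 were lower, Top1mt, the mitochondrial topoisomerase, by 1.14-fold. The median log2 ratios of these 5 lists lay between -0.037 and 0.0029, beside 0.0028 over all genes tested, and the called share of each list was below the 28.7% of all genes.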

How the data were processed

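Expected counts, effective lengths, TPM and credible bounds were deposited by the authors for each library, on mm10 with GENCODE release 4, per the readme files deposited with the samples. Expected counts need not be whole, since a read can be split over genes, and deposited TPM was scaled to 1000000 over all rows including spike-ins. The signal unit covers the credible bounds of TPM and the contig table of the deposited mm9 files, which is pooled over the libraries. The program, its strand setting and the level of the bounds are not given in the sources used here. The deposited mm9 gene table gives a score field with Ensembl release 65, and the deposited mm9 junction table gives a count of junction reads.

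Symbols and mm10 positions came from GENCODE release 21 (GRCm38), which matched 42462 of 43346 gene rows (98.0%) by unversioned identifier. Expected counts were rounded for the exact binomial test, which needed 10 counts or more summed over the libraries. Quasi-likelihood testing was not possible, because 1 library against 1 leaves no residual degrees of freedom. Log2 ratios had 0.5 counts added. Levels were summarised as log2(TPM + 1). A copy was a pseudogene off chrM with at least 50% of its read-length windows in members. Intervals are 95% Clopper-Pearson and cover counting error only. Neither they nor the exact binomial test cover the split of reads over genes and copies. No molecular identifiers were reported, so reads may repeat molecules. Alternatives were plain totals, DESeq2 1.42.0 size factors, spike-in totals, TMM without the members, count filters of 1 and 50, noise widened with edgeR 4.0.16, other units, and copies added. R 4.3.3, Python 3.11.15, scipy 1.17.1, pandas 2.3.3 and numpy 2.4.6 were used. The exact binomial test and its intervals were checked on simulated counts with counting error only. The simulation held no added noise between libraries and no reads split over copies, so it does not cover these.

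The members and gene lists were chosen with earlier results of these data known. All members were named. Of each nuclear list the most and least abundant gene and the called genes with the largest ratio in each direction were named, of the copies the 6 with most counts, with Gm28439 added, and of the tissue markers all but 2, which are not reported here. In the complex I list Ndufb1 was not matched.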

Additional observations from a re-analysis of the deposited data

Results flagged for a closer look

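Values outside the gene tables were found in the mm9 junction table, which lists alignments that skip a stretch of sequence. Mitochondrial genes are not known to be spliced, and the table held 3643 junctions on chrM with 10750 reads in all, 0.0139% of the 77350667 junction reads. The 2266 junctions with 1 read made up 62.2% of them. Junctions with both ends inside 1 mitochondrial gene on its strand took 80.8% of the reads, and those inside mt-Co1 took 37.1%. The junction with most reads, 1602, skipped 61 nt of mt-Co1 (mm9 chrM:6458-6518, bases 1131 to 1191 of the gene), and the next, with 697 reads, skipped 67 nt (mm9 chrM:6451-6517). The junction at mm9 chrM:14428-14538 in mt-Cytb followed with 215 reads. What gave these reads was not tested.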

How the results depend on the processing

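The share of gene counts was 9.16% as reported, 9.03% to 9.30% with either library left out, 8.77% over all rows, 10.3% with copies added, 8.08% for messenger RNA genes alone and 35.5% as TPM. Of members called, 9 were higher and 4 lower. Spike-in totals gave 4 and 11, plain totals 8 and 7, and widened noise 0 and 0. The median log2 ratio of the messenger RNA genes, 0.0080, was 0.00099 with DESeq2 size factors, 0.0024 with copies added and 0.059 as a mean, and it turned to -0.026 with plain totals, -0.15 with spike-in totals and -0.13 as TPM ratios. Spike-in totals and TPM ratios moved the median of all genes to -0.15 and -0.16, so the messenger RNA genes kept close to all genes. Single genes turned under spike-in totals (mt-Nd1 -0.030, mt-Co2 -0.15, mt-Atp8 -0.063, mt-Atp6 -0.075, mt-Nd4 -0.075, mt-Nd5 -0.15), plain totals (mt-Co2 -0.026, mt-Nd5 -0.031), DESeq2 size factors (mt-Nd5 -0.0045, uncalled in both) and copies added (mt-Atp6 -0.013, mt-Co3 0.022, mt-Nd4l -0.0095). mt-Rnr1 and mt-Rnr2 were higher in replicate 2 under every scaling run, though not called with widened noise. The median messenger level was 12.99 on the log2 scale, 12.32 on annotated length and 13.24 for effective lengths of at least 200 nt. mt-Nd6 stood at -2.99 against the plus-strand genes, and at -3.40 on annotated length. The cause of these shifts was not tested beyond the change of unit, scaling or genes that defines each. Adding the copies was planned for the share and chosen after seeing the data for the other results. Both planned mm9 RPKM alternatives gave no value, because all 37 genes are listed at 0 there. With 1 group and 2 libraries, no replicate spread within a condition beyond this pair was measured. No paired analysis was possible because there is 1 group.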

Other observations

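The mm9 contig table, pooled over the libraries, held 5 contigs on chrM, 3 on the plus and 2 on the minus strand. The plus-strand contig chrM:1-6943, from the start of the chromosome past mt-Co1, had a signal of 4130, and chrM:7775-16299, from within mt-Atp8 to the end, had 1450. Between them lay a contig over mt-Co2 and part of mt-Td (chrM:6993-7694) with a signal of 0.92, although mt-Co2 took 719973 and 709828 counts in the mm10 tables. The minus-strand contigs, chrM:9631-10019 opposite the region of mt-Nd3, mt-Tr and mt-Nd4l and chrM:10096-10547 opposite mt-Nd4l and mt-Nd4, had signals of 0.713 and 0.05. All positions in this paragraph are mm9.

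Other pseudogenes shared fewer windows with members. Gm13341, Gm13340 and Gm13339 on chromosome 2 had 15.03%, 5.33% and 7.07% of their windows in mt-Co2, mt-Co1 and mt-Nd2, and they took 698 and 655, 49.2 and 39.2, and 0 and 2.01 counts.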
